A study of Mus musculus with 4 samples.

Results

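The 41 genes described here encode the proteasome and the machinery that delivers its peptides to MHC class I molecules. They comprise the subunits of the catalytic core and of the regulatory particle, the immunoproteasome subunits, the PA28 activator, and the genes for peptide transport, loading and trimming. Each gene was represented by its brightest probe set among those that the platform annotation assigns to 1 symbol. This gave values for 40 of the 41 genes, out of 18194 genes with such a probe set, and all 40 were bright enough to be among the 10873 genes tested. Psme2 was not analysed here.

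The values come from 4 Affymetrix arrays on group 2 innate lymphoid cells (ILC2), lymphocytes that lack rearranged antigen receptors and make type 2 cytokines. The control group holds 2 samples from littermate mice, and the Ets1-deleted group 2 samples from mice that carry a deletion of the transcription factor gene Ets1. All mice were of the C57BL/6 strain. Cells of both groups were grown for 2 weeks with IL-7 and IL-33 on OP9-DL1, a mouse stromal line that carries the Notch ligand DL1, after which the ICOS-positive cells were collected. The sources used here do not give the age of the mice, how Ets1 was deleted or in which cells. The labels do not tell whether the 2 samples of a group are different mice or cultures. The p-values set each difference against the spread among these samples only, borrowed in part from all tested genes. That spread may be technical. In sorted bulk RNA, fewer cells of a type and less RNA per cell cannot be told apart.

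The comparison asks which genes differ with the Ets1 genotype. The targeted gene was low in both arrays labelled Ets1-deleted: the brightest Ets1 probe set read 1272 and 1231 intensity units in the controls and 138.1 and 180.2 in the Ets1-deleted arrays. Of 15 listed ILC2 markers, 13 were measured, and all 13 lay above the limit for dim probe sets (97.4 intensity units) in all 4 arrays; 6 rose and 4 fell, among them Thy1 (1.91), Rora (1.29) and Klrg1 (-1.60). Markers of other cell types differed between the groups too. For comparison, 13.9% of all tested genes rose and 12.8% fell at a limma adjusted p of 0.05. Of 18 myeloid markers, 14 were tested and 13 rose in the Ets1-deleted group, where the summed intensity of the list was 5782 to 5882 against 3221 to 3420 in the controls. The 10 measured T cell markers summed to 6382 and 6635 against 3378 and 3479, with 4 of 6 tested genes (Cd3d, Cd3e, Cd3g and Cd247) higher, and Cd4, Cd8a and Cd8b1 stayed below the limit in every array. The 12 mast cell and basophil markers summed to 4153 to 4317 against 2547 to 2564, with 7 of 9 tested genes higher; without Cpa3 the sums were 2820 to 2891 against 2461 to 2486. Of 8 tested stromal markers, Timp3 rose and Pdgfrb fell. Without overlap, 5 of the 8 were lower, Pdgfrb among them, and 2 higher, against 31.7% and 30.9% of all tested genes. The list summed to 3168 to 3193 against 2793 to 3019, and without Timp3 to 2314 to 2417 against 2642 to 2893. Of the 6 measured B cell markers Cd79b fell, and the other 5 summed to 388 to 404 against 380 to 395. No marker was listed at 0. The part of these cell types in the results below was not tested.

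The proteasome degrades proteins tagged with ubiquitin. Its core is a barrel of alpha and beta rings, with the proteolytic sites on 3 of the beta subunits, and a regulatory particle binds, unfolds and feeds in the substrates. Interferon and lymphoid cell identity drive an alternative set of catalytic subunits, the immunoproteasome: Psmb8 takes the place of Psmb5, Psmb9 that of Psmb6 and Psmb10 that of Psmb7. The peptides it cuts are pumped into the endoplasmic reticulum by the transporter of Tap1 and Tap2, trimmed there, and loaded onto MHC class I molecules, whose light chain is encoded by B2m. Lymphocytes as a rule carry much of both the immunoproteasome and MHC class I.

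RefSeq promoter windows (GRCm38.p6, 250 bases before to 50 after the start of each gene) were available for 34 of the 41 genes; Psmb1, Psmb2, Psmb7, Psmc3, Psmd3, Psmd7 and Tap2 have none there. In the RefSeq gene order of chromosome 17, Psmb9, Tap1, Psmb8 and Tap2 are direct neighbours within the MHC region. Psmb9 and Tap1 start on opposite strands with 225 bases between them, so both are read outward from a single stretch of DNA. It is shown here because both genes had lower values in the Ets1-deleted arrays. The stretch is chr17:34187331-34187555, written on the strand of Tap1, with a GC box (GGGCGG on either strand) in capitals.
Psmb9 to Tap1: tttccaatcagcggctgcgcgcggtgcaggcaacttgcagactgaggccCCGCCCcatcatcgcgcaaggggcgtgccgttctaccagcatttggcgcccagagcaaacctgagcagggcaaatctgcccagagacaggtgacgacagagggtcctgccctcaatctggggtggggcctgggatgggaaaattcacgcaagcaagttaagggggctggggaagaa

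Other windows were searched on both strands for short motifs of factors tied to these genes. The ETS core CCGGAAG, the DNA letters that many ETS family factors prefer, was in the windows of 10 of 25 constitutive subunit genes (40.0%) and in 9.93% of the 27025 genes with a window. The letters were in 6 of 9 windows of the non-ATPase genes of the regulatory particle, in 3 of 5 of its ATPase genes, in 1 of 7 of the alpha ring and in 0 of 4 of the constitutive beta ring. None of the 4 windows of Psmb8, Psmb9, Psmb10 and Tap1 held these letters. Of the genes with these letters, Psmc6 and Psmd6 rose at a limma adjusted p of 0.05, and 13.9% of all tested genes rose. Whether the letters go with the differences was not tested. Psma6, Psmc1, Psmc2, Psmd2, Psmd4, Psmd11, Psmd12 and Psmd13 hold them too and did not pass. Their log2 differences ran from -0.12 (Psmd13) to 0.22 (Psmd11). The stretches around the ETS core of Psmc6 and Psmd6 are given because both genes had higher values with Ets1 deleted; capitals mark the core. The window of Psmd8, which was also higher, does not hold these letters. The stretches are chr14:45329697-45329757 on the plus strand and chr14:14120957-14121017 on the minus strand.
Psmc6: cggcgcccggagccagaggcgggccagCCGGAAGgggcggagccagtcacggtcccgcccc
Psmd6: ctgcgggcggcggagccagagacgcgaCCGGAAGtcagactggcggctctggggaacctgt
Counted from the start of the gene, the core begins at -100 in Psmc6 and at -45 in Psmd6. A match is a run of letters and does not show that a factor binds there.

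The interferon-stimulated response element core (GAAA, any 2 bases, GAAA) was in 5 of the 34 windows (14.7%), those of B2m, Erap1, Psme1, Psmb3 and Psmd4, and in 3.99% of all genes with a window. The GAS element TTCNNNGAA, a short element of interferon-responsive promoters, was in the windows of Psmb8 and Psmd2 (5.88%, against 9.55% of all genes). The NF-kB site (GGGA, any 2 bases, TTCC) was in that of B2m (2.94%, against 1.63%), and the antioxidant element TGACNNNGC in those of Psmb5, Psmb6, Psmc6 and Psmd12 (11.8%, against 13.99%). The GC box was in 21 of the 34 windows (61.8%) and in 38.2% of all genes. None of these searches takes the base composition of the windows into account. The stretches of B2m (chr2:122147528-122147588, plus strand) and Psmb8 (chr17:34198072-34198132, plus strand) show the interferon and NF-kB letters of the first and the GAS letters of the second in capitals. They are shown because interferon acts on such genes through sites of these kinds.
B2m: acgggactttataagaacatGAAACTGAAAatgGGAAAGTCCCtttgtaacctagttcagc
Psmb8: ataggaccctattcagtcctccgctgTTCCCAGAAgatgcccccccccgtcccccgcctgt

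Across the 40 measured genes, 4 rose and 3 fell in the Ets1-deleted arrays (limma, adjusted p of 0.05 over all tested genes). These 7 are 17.5% of the members, against 26.7% of all 10873 tested genes, so calls were not more frequent here than elsewhere on the array. The 4 rises were in the regulatory particle genes Psmc6, Psmd3, Psmd6 and Psmd8. The 3 falls were in the immunoproteasome gene Psmb10 and the transporter genes Tap1 and Tap2. All differences were small: the largest was 1.37-fold, and 0 of the 40 genes reached 1.5-fold with an adjusted p of 0.05. The median log2 difference, Ets1-deleted minus control, was 0.08 over the 40 genes and 0.00 over all tested genes, with single values from -0.45 to 0.45.

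**Figure D1:**
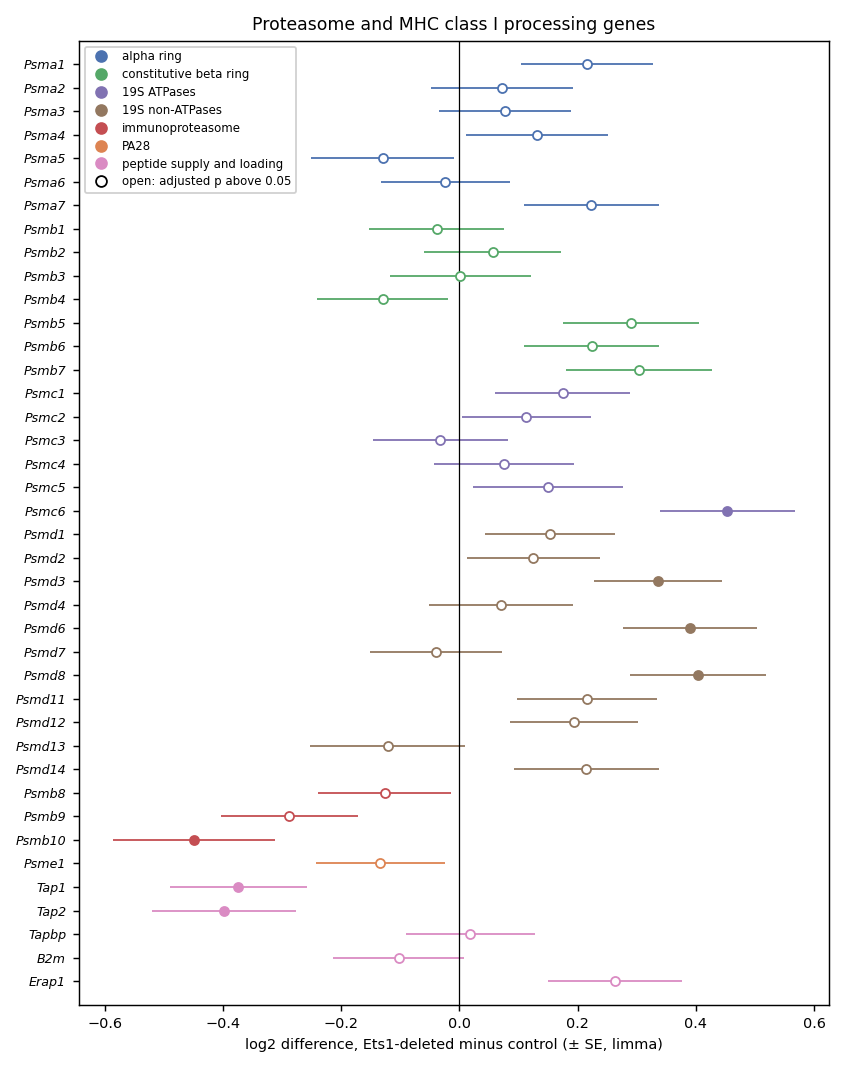
Log2 difference between Ets1-deleted and control arrays for the 40 measured genes, with the SE from limma; colours mark the member groups and filled points an adjusted p of 0.05 or less. The 5 immunoproteasome and Tap genes lie left of 0 (-0.13 to -0.45), and 24 of the 31 constitutive subunits lie right of it.

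The immunoproteasome and Tap genes lay together on the lower side. All 5 had values below 0 with no overlap between the groups, and 3 passed the test. Of all tested genes, 12.8% passed on the lower side, 62.6% had no overlap in either direction and 31.7% were lower without overlap. Their median log2 difference was -0.37.

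Psmb10, which supplies the trypsin-like site of the immunoproteasome, read 1599 and 2037 intensity units in the controls and 1225 and 1427 in the Ets1-deleted arrays. Both Ets1-deleted values lay under both controls, although the controls were themselves far apart. The log2 difference was -0.45 ± 0.14 (SE, limma adjusted p = 0.0301, n = 2 per group), or 1.36-fold lower. The call was lost without control 2 (-0.27, limma adjusted p = 0.292) and without Ets1-deleted 1 (-0.34, limma adjusted p = 0.139). Psmb9, the immunosubunit encoded beside Tap1, read 3087 and 3054 in the controls and 2340 and 2705 in the Ets1-deleted arrays. The 2 genotypes did not overlap, yet the difference of -0.29 ± 0.12 missed the threshold (limma adjusted p = 0.0901). Without Ets1-deleted 2 the difference was -0.39, and without Ets1-deleted 1 it was -0.18. With genes averaged over probe sets Psmb9 passed (limma adjusted p = 0.0475). Psmb9 has 1 probe set, so its difference stayed at -0.29 there and only the SE changed, from 0.116 to 0.092. Psmb8, which replaces the chymotrypsin-like subunit, had the smallest difference of the 3. It read 2809 and 2855 in the controls and 2739 and 2457 in the Ets1-deleted arrays, a log2 difference of -0.13 with a 95% interval of -0.37 to 0.12 (limma adjusted p = 0.459). A second, dimmer Psmb8 probe set differed by 0.11.

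Tap1 read 1758 and 1848 intensity units in the controls and 1296 and 1494 in the Ets1-deleted arrays. Its log2 difference was -0.37 ± 0.12 (limma adjusted p = 0.033). Tap1 has 3 dimmer probe sets, of which 1 lies above the limit for dim sets and differed by 0.04, so the fall rests on the brightest set, and the mean over the 4 sets gave -0.05 (limma adjusted p = 0.699). Tap2, the partner of Tap1 in the transporter, has 1 probe set, with 309 and 330 in the controls and 221 and 265.7 in the Ets1-deleted arrays. The 2 genotypes did not overlap, and the log2 difference was -0.40 ± 0.12 (limma adjusted p = 0.0306). Without control 2 the differences were -0.34 for Tap1 and -0.35 for Tap2 (limma adjusted p of 0.164 and 0.143). Without Ets1-deleted 1 they were -0.27 for both (0.178 and 0.191), and without control 1 Tap1 gave -0.41 (0.0683).

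The remaining genes of peptide supply and loading went different ways and none passed. B2m, the common light chain of MHC class I, read 10464 and 10500 intensity units in the controls and 10191 and 9349 in the Ets1-deleted arrays, a log2 difference of -0.10 with a 95% interval of -0.34 to 0.14. Its second probe set differed by 0.01. Tapbp encodes tapasin, which bridges the transporter and the empty class I molecule. It read 5167 and 4915 in the controls and 5050 and 5159 in the Ets1-deleted arrays, with full overlap (0.02), while its second probe set was higher by 0.32. Erap1, the aminopeptidase that trims peptides in the endoplasmic reticulum, read 579.3 and 616.5 in the controls and 756.4 and 680.5 in the Ets1-deleted arrays. Its difference of 0.26 ± 0.11 (limma adjusted p = 0.111) was thus opposite in sign to those of Tap1 and Tap2. Psme1, a subunit of the PA28 activator that opens the core and is induced by interferon, read 3872 and 4031 in the controls and 3519 and 3685 in the Ets1-deleted arrays (-0.13, limma adjusted p = 0.416).

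**Figure D2:**
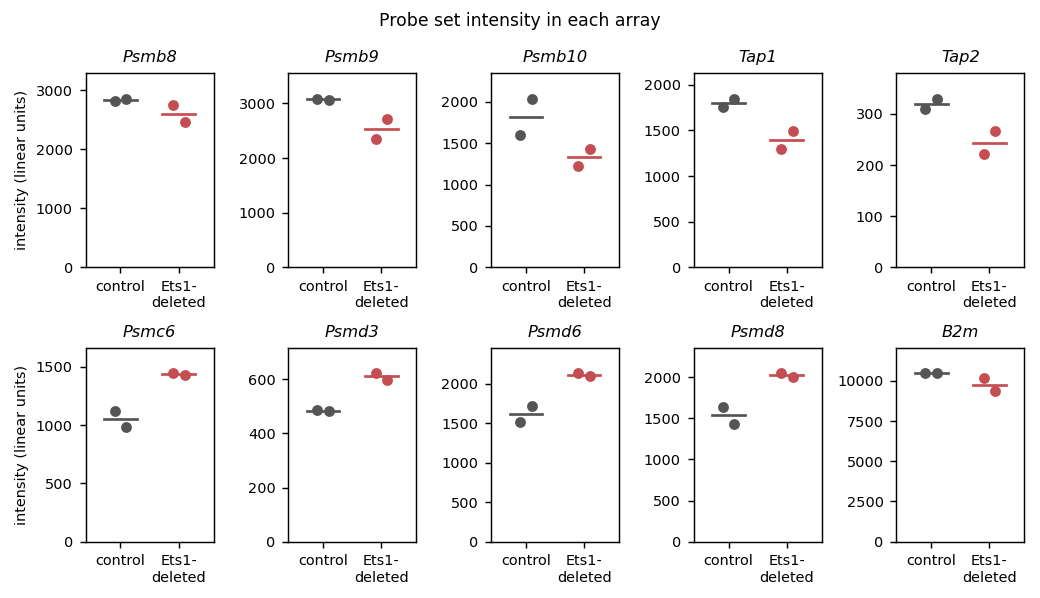
Probe set intensity on a linear axis from 0 in each of the 4 arrays, for the immunoproteasome and Tap genes, the 4 regulatory particle genes that rose, and B2m; points are arrays and lines the group means. Psmb10 shows the largest fall of the genes drawn (1.36-fold) and Psmc6 the largest rise (1.37-fold), and B2m lies between 9349 and 10500 in all 4 arrays.

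The constitutive subunits leaned the other way. Of the 31 genes, 24 had a log2 difference above 0 and 7 below, with a median of 0.13; 4 rose and 0 fell, and 13.9% of all tested genes rose. The groups were higher without overlap in 16 genes and lower in 1, against 30.9% and 31.7% of all tested genes. The regulatory particle held all 4 rises: its 17 genes had a median of 0.15, with 14 above 0, and 11 were higher without overlap. The 14 constitutive genes of the core had a median of 0.07 and 0 of them passed the test (at an unadjusted p under 0.05, 2 did).

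Psmc6 encodes an ATPase of the ring that unfolds substrates. Its intensity was 1123 and 981.6 in the controls, against 1447 and 1427 with Ets1 deleted. This is a log2 difference of 0.45 ± 0.11 (limma adjusted p = 0.0116), and both dimmer Psmc6 probe sets gave like values (0.49 and 0.50). The other 5 ATPase genes did not pass. Their differences ran from -0.03 for Psmc3 to 0.17 for Psmc1. Among the non-ATPase subunits, 3 genes of the lid rose, the part of the particle in which ubiquitin chains are removed. Psmd8 read 1636 and 1430 in the controls and 2051 and 1997 in the Ets1-deleted arrays (0.40 ± 0.12, limma adjusted p = 0.0216). Psmd6 read 1522 and 1713 in the controls and 2139 and 2093 in the Ets1-deleted arrays (0.39 ± 0.11, limma adjusted p = 0.0238), while its second probe set was higher by 0.16. Psmd3 read 484.8 and 483 in the controls and 623.4 and 598.5 in the Ets1-deleted arrays (0.34 ± 0.11, limma adjusted p = 0.0379). In each of these 4 genes the Ets1-deleted arrays lay close together and above both controls.

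The calls of the 4 rises depended on which arrays were kept. Leaving out 1 array also raised the SE. For Psmd3 it went from 0.108 to 0.170 without control 1, while the difference stayed at 0.34. Without control 1 or control 2 the SE was the same in all 4 genes, so a gene's own spread did not enter there. Without control 2, Psmc6 (0.36, limma adjusted p = 0.135), Psmd8 (0.31, 0.221) and Psmd3 (0.33, 0.17) no longer passed, and without control 1 Psmd6 (0.30, 0.214) and Psmd3 (0.34, 0.155) did not. Without Ets1-deleted 1 the values were 0.37 for Psmd6, 0.38 for Psmd8 and 0.31 for Psmd3 (limma adjusted p of 0.068, 0.0633 and 0.123), and without Ets1-deleted 2 Psmd3 gave 0.37 (0.0592). With the 5th percentile of each array subtracted, Psmc6 alone of the 7 called members still passed, and Psmb10 did not pass when dim genes were also tested (limma adjusted p = 0.0694).

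The other 8 non-ATPase genes had differences between -0.12 and 0.22. Psmd14, the deubiquitinase of the lid, read 2318 and 2280 in the controls and 2420 and 2942 in the Ets1-deleted arrays (0.21, limma adjusted p = 0.229); it was 0.36 without Ets1-deleted 1 and 0.074 without Ets1-deleted 2. The lid genes Psmd11 and Psmd12 had differences of 0.22 and 0.19 without passing, and Psmd11 was 0.11 without Ets1-deleted 1. Psmd4, a ubiquitin receptor, differed by 0.07 with overlapping groups, and the scaffold genes Psmd1 and Psmd2 by 0.15 and 0.13. Psmd13 (-0.12) and Psmd7 (-0.04) lay below 0 with overlap. In the alpha ring, which gates entry to the core, differences ran from -0.13 (Psma5) to 0.22 (Psma7 and Psma1). The 2 bright Psma5 probe sets went opposite ways (-0.13 and 0.19). The brightest Psma6 set carries the array maker's suffix for probes that may also bind other transcripts, and it gave -0.02, against 0.14 for its next brightest set.

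Within the constitutive beta ring, the 3 catalytic genes that the immunosubunits replace stood above the 4 structural ones. Psmb5, of the chymotrypsin-like site, read 1470 and 1687 intensity units in the controls and 1946 and 1905 in the Ets1-deleted arrays (0.29 ± 0.12, limma adjusted p = 0.0856). Psmb6, of the caspase-like site, read 1418 and 1609 in the controls and 1788 and 1739 in the Ets1-deleted arrays (0.22 ± 0.11, limma adjusted p = 0.178). Psmb7, of the trypsin-like site, read 2914 and 2823 in the controls and 3920 and 3196 in the Ets1-deleted arrays (0.30 ± 0.12, limma adjusted p = 0.0938). None of the 3 passed. In each, both Ets1-deleted values lay above both controls, as in 30.9% of all tested genes. Without Ets1-deleted 2, the array of lower value, Psmb7 passed (0.45, limma adjusted p = 0.021), while without Ets1-deleted 1 it was 0.16 (0.465). Without control 1, Psmb5 was 0.19 and Psmb6 0.13. Psmb5 passed with genes averaged over probe sets (limma adjusted p = 0.0439). Psmb5 has 1 probe set, so its difference stayed at 0.29 there and only the SE changed, from 0.115 to 0.091. The structural genes Psmb1, Psmb2, Psmb3 and Psmb4 differed by -0.04, 0.06, 0.00 and -0.13. Their dimmer probe sets above the limit gave 0.14 and 0.07 for Psmb1, -0.03 for Psmb3 and 0.10 for Psmb4, so the signs for Psmb1 and Psmb4 depend on the set.

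The immunosubunits were set against the subunits they replace within each array, which cancels any shift common to both genes. The log2 change of Psmb8 was 0.42 below that of Psmb5, a difference of changes of -0.42. For Psmb9 against Psmb6 it was -0.51, and for Psmb10 against Psmb7 -0.75. Relative to the control mean of each pair, the controls lay within 0.20 of 0 on either side. The Ets1-deleted arrays lay at -0.35 and -0.48 for Psmb8, at -0.64 and -0.39 for Psmb9 and at -1.01 and -0.49 for Psmb10. In all 3 pairs both Ets1-deleted arrays were below both controls. This follows from the single genes, each of which already had no overlap between the groups. The two-sided exact permutation test over the arrays gave p = 0.333 for each pair, and 0.333 after adjustment over the 3 pairs, which is the smallest value that 2 arrays against 2 can give. Over the groups, the median of the 5 immunoproteasome and Tap genes lay 0.50 below that of the 31 constitutive subunits. Array by array, the difference between the 2 group medians varied with an SD of 0.0837 within genotypes. Relative to the control mean of each gene, the medians of the constitutive subunits were 0.09 and 0.15 in the Ets1-deleted arrays, and those of the immunoproteasome and Tap genes -0.48 and -0.27. Without Ets1-deleted 1, the array in which Psmb10, Tap1 and Tap2 were lowest, the gap between the groups was 0.41.

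**Figure D3:**
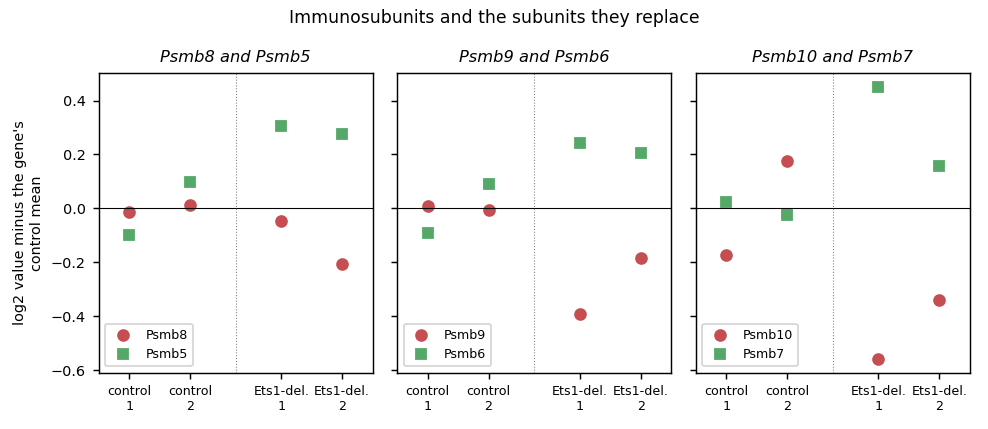
Log2 value of each immunosubunit (circles) and of the constitutive subunit it replaces (squares) in the 4 arrays, each minus its own control mean. In the Ets1-deleted arrays the squares lie above 0 and the circles below in all 3 pairs, and the pairs differ from the controls by -0.42, -0.51 and -0.75.

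Other genes of the pathway were counted over whole lists. Of 18 regulators of MHC class I and immunoproteasome genes, 16 were measured, and 2 rose and 3 fell. This is 31.2% called, against 26.7% of all tested genes. Nlrc5, the transactivator of MHC class I genes that also acts on B2m, Tap1 and Psmb9, read 914 and 819.8 intensity units in the controls and 618.3 and 578.5 in the Ets1-deleted arrays. It fell by 0.53 ± 0.11 on the log2 scale (limma adjusted p = 0.0042). Rfx5, a subunit of the DNA-binding complex on which Nlrc5 works, read 589.2 and 561.2 in the controls and 315.8 and 341.4 in the Ets1-deleted arrays. Its log2 difference of -0.81 ± 0.11 (limma adjusted p = 0.000181) was larger than that of any of the 40 members. Rfxap and Rfxank, the partners of Rfx5 in that complex, differed by -0.11 and 0.24 and did not pass.

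On the interferon side, the receptor gene Ifngr1 rose. Its intensity was 294.7 and 373.8 in the controls, against 940 and 931.8 with Ets1 deleted (1.496 ± 0.13, limma adjusted p = 3.92e-06). Irf8, an interferon regulatory factor of myeloid and lymphoid cells, rose by 1.24 ± 0.12 (limma adjusted p = 8.23e-06) from 102.8 and 89.26, near the limit for dim sets, to 220.3 and 233.4. Myeloid markers were higher in the same arrays, and their part in the rise of Irf8 was not tested. Irf1, which acts directly on Tap1 and Psmb9, read 1388 and 1541 in the controls and 1188 and 1220 in the Ets1-deleted arrays, a log2 difference of -0.28 ± 0.11 (limma adjusted p = 0.0875). Jak1, a kinase of interferon and interleukin receptors, was the fifth regulator to pass and was named after its value was seen (-0.33, limma adjusted p = 0.0423). It missed the threshold with each array centred on its median (limma adjusted p = 0.0512), and without control 1 (-0.36, 0.13) or control 2 (-0.31, 0.22). Its other bright probe sets gave -0.67 and -0.54. Without Ets1-deleted 1 or 2 another Jak1 set was the brightest, and it gave -0.61 and -0.73 (limma adjusted p of 0.00451 and 0.000818).

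Of the 18 MHC class I and related genes, 10 were measured and 8 tested. Of these, 2 rose and 1 fell (37.5%, against 26.7% of all tested genes). The 2 classical heavy chain genes did not pass. H2-K1 read 5602 and 5429 in the controls and 5328 and 5768 in the Ets1-deleted arrays (0.01), and H2-D1 read 7458 and 7347 in the controls and 6413 and 7049 in the Ets1-deleted arrays (-0.14, limma adjusted p = 0.408). Both brightest sets carry the suffix for probes that may bind related transcripts, and class I genes are near copies of one another, so these values are uncertain as to gene. A dimmer H2-D1 set without that suffix read 3045 and 3103 in the controls and 2386 and 2611 in the Ets1-deleted arrays (-0.30). The remaining H2-D1 sets above the limit for dim sets, all with the suffix, gave -0.08, 0.14, 0.05 and 0.10. These further sets were not tested. Mr1, which presents vitamin metabolites, fell by 0.42 ± 0.11 on the log2 scale (limma adjusted p = 0.0161) from 435.4 and 424.1 to 340.4 and 302.3. Its call was lost without control 1 (-0.40, limma adjusted p = 0.0746) and without Ets1-deleted 2 (-0.34, 0.0833). Hfe, an iron regulator with a class I fold, rose by 0.60 and Fcgrt, the neonatal Fc receptor, by 0.41 (limma adjusted p of 0.00339 and 0.0153), both from control values of 95.83 to 114.2 close to the limit for dim sets. Fcgrt did not pass without control 1 (0.40, limma adjusted p = 0.0804), control 2 (0.42, 0.0664) or Ets1-deleted 1 (0.38, 0.0546).

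Of 20 genes of proteasome assembly and regulation, 17 were measured. Of these, 3 rose and 1 fell (23.5%, against 26.7% of all tested genes). Nfe2l1 encodes the factor that raises proteasome gene transcription when proteasome activity is short. Its intensity was 724.2 and 838.9 in the controls, against 1162 and 1238 with Ets1 deleted (0.62 ± 0.12, limma adjusted p = 0.00194). Its relative Nfe2l2, the main factor of the antioxidant response, went the other way, from 1186 and 1191 to 771.6 and 855.1 (-0.55 ± 0.11, limma adjusted p = 0.00313). The assembly chaperone genes Psmd5, for the regulatory particle, and Psmg1, for the alpha ring, rose by 0.42 and 0.41 (limma adjusted p of 0.013 and 0.0161). Psmd5 missed the threshold without control 1 (0.42, limma adjusted p = 0.0605), control 2 (0.43, 0.0587) or Ets1-deleted 1 (0.38, 0.0566), and Psmg1 without control 1 (0.36, 0.122) or Ets1-deleted 1 (0.38, 0.0549). The chaperones Pomp, Psmg2, Psmg3 and Psmg4 did not pass.

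**Figure D4:**
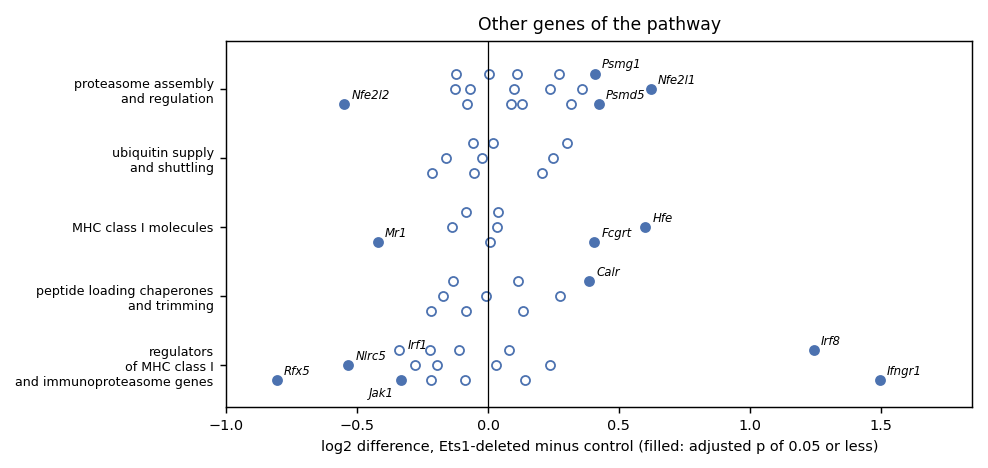
Log2 difference between Ets1-deleted and control arrays for the tested genes of 5 pathway lists, with filled points at an adjusted p of 0.05 or less; vertical offsets within a list only separate the points. Nlrc5 (-0.53) and Rfx5 (-0.81) lie to the left, Nfe2l1 (0.62) to the right, and Ifngr1 (1.496) and Irf8 (1.24) farthest right.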

How the data were processed

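The authors deposited 1 intensity per probe set and array, computed with RMA, per the submitters' processing notes. The sources used here give no software, version or rescaling. Values run from 39.5 to 23291, so the intensity values were read as linear, an inference, and turned into log2. Array medians were 96.5 to 97.7. RNA was amplified with a second round of in vitro transcription, per the labels' protocols, and the number of arrays limits the precision.

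Of 45101 probe sets, 34958 had 1 symbol. A gene was tested where the mean log2 of its brightest set reached the median over all sets (50th percentile). The fit was limma 3.58.1 (R 4.3.3), comparing the 2 Ets1-deleted with the 2 control arrays (two-sided), and p-values were adjusted over 10873 genes by Benjamini-Hochberg, with 2 residual and 9.75 prior degrees of freedom. In simulated data for these genes, 67 were given a log2 difference of 0.5, and the fit recovered 67.2% of them. It recovered 100% of those of 1, with 12 false calls. The simulation drew independent normal noise at the moderated spread and changed far fewer genes than the 2900 called here. Its rates therefore need not hold for these data.

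Members and lists were chosen with earlier results of these data known. All members could be named; of each further list, up to 4 called genes of smallest p, and Ets1, Irf1, Nlrc5, H2-K1 and H2-D1. Rfxap, Rfxank, Pomp, Psmg2, Psmg3, Psmg4, Vcp, Rad23b, Sqstm1 and the cell type markers named were chosen after their values were seen. Alternatives were other normalization, background, filter, probe set, variance, threshold and block settings and leaving out each array. The GC box was added after the sequences were seen.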

Additional observations from a re-analysis of the deposited data

How the results depend on the processing

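The count of called members was 7 (4 higher, 3 lower) under a repeated quantile normalization, median centring, the stricter filter, the replicate block and a variance trend with robust fitting. In all 5 the same 7 genes were called. With each array's 5th percentile subtracted (floor of 16 units) 1 remained, Psmc6, higher, and 0 lower. With each gene's own variance, or a limit of 1.5-fold, 0 remained, 0 higher and 0 lower in limma; 4 members had an unadjusted p under 0.05 with the gene's own variance and 11 in the moderated fit. Over all genes these settings called 7 higher and 6 lower, and 768 higher and 581 lower, against 1512 and 1388. Leaving out 1 array gave 1 to 8 calls (1 to 4 higher, 0 to 4 lower), on the assumption that the single array left in a group varies as much as the intact pair. Replicate numbers are shared between the groups, but only 2 pairs exist and nothing says that they mark a shared litter or day; deviations of same-numbered arrays correlated at 0.17, and the replicate block changed the count of 7 by 0.

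The gap between the immunoproteasome and Tap genes and the constitutive subunits (-0.50) moved to -0.41 with the mean over probe sets and to -0.66 against Psmb5, Psmb6 and Psmb7 alone, and was -0.57 to -0.41 when 1 array was left out. The 3 pair differences kept their sign throughout.

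Members near 0 changed sign without being called. With the mean over probe sets Psma3 was -0.14, Psma5 0.041, Psma6 0.086, Psmb1 0.059 and Psmb3 -0.013. Leaving out 1 array gave ranges of -0.041 to 0.18 (Psma2), -0.063 to 0.015 (Psma6), -0.11 to 0.031 (Psmb1), -0.026 to 0.14 (Psmb2), -0.11 to 0.11 (Psmb3), -0.10 to 0.036 (Psmc3), -0.043 to 0.19 (Psmc4), -0.039 to 0.18 (Psmd4), -0.10 to 0.017 (Psmd7), -0.29 to 0.052 (Psmd13), -0.018 to 0.055 (Tapbp) and -0.050 to 0.065 (H2-K1). The causes were not tested. RMA values level off near the floor, which understates folds of dim genes.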

Other observations

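Ubiquitin supply and peptide handling outside the members moved little. Of 16 listed genes of ubiquitin supply and shuttling, 9 were measured. Of these, 0 passed an adjusted p of 0.05 in limma, against 26.7% of all tested genes. At an unadjusted p under 0.05, 2 did (Rad23b at 0.30 and Sqstm1 at 0.25). The median of this list was -0.02. Vcp, the segregase that pulls ubiquitinated proteins out of complexes and membranes, read 4397 and 4261 intensity units in the controls and 4250 and 4275 in the Ets1-deleted arrays.

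Of 11 listed genes of loading chaperones and peptide trimming, 9 were measured. Of these, 1 rose and 0 fell (11.1%, against 26.7% of all tested genes), with a median of -0.01. Calr, the chaperone calreticulin of the loading complex, rose by 0.39 ± 0.12 (limma adjusted p = 0.0296). Its 3 probe sets all gave higher values (0.39, 0.21 and 0.64), and the call was lost without control 1 (0.31, limma adjusted p = 0.196) or Ets1-deleted 1 (0.30, 0.149). The brightest Calr set carries the suffix for probes that may bind other transcripts.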
